A study of Mus musculus with 21 samples.

Results

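The genes described here are 9 members of the early B-lineage program, followed in a mouse lymphoid progenitor (LP) line that lacks functional *Ebf1*. They are the transcription factor genes *Ebf1*, *Pax5*, *Foxo1* and *Pou2af1*, the pre-B cell receptor genes *Cd79a*, *Cd79b*, *Vpreb1* and *Igll1*, and the adaptor gene *Blnk*. The members were matched by gene symbol in a QuantSeq table of 55421 genes, where each had 1 row, and by nearest gene in the lists of ChIP-seq peaks. All 9 were found in the table, 7 had at least 1 read, and 5 (*Ebf1*, *Pax5*, *Foxo1*, *Vpreb1* and *Blnk*) had a mean above 1 TPM and could be tested. Of 5898 Zbtb1 peaks 4 had a member as nearest gene, and of 6077 Cbfa2t3 peaks 3 did.

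Every sample came from LP cells of C57BL6/J background, kept on OP9 stromal cells with SCF, IL-7 and Flt3L. The study derived the line from *Ebf1*-deficient mice, so the controls carry that deficiency too. For QuantSeq, which reads each mRNA near its 3′ end, Cas9-GFP LPs received retroviral sgRNAs with an hNGFR marker and were sorted for both markers. By the paper, they were sorted 5 days after the sgRNAs were introduced, and 2 sgRNA vectors were pooled for each target. sgCont is directed against luciferase, and sgLmo2, sgZbtb1, sgCbfa2t2 and sgCbfa2t3 against components of the Lmo2 complex. Each of the 5 conditions had 3 libraries. Zbtb1 and Cbfa2t3 ChIP-seq was done on 2 replicates each in LPs without Notch stimulation. The sample titles name LP cells without telling lines apart, so all libraries are treated as coming from a single line.

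In bone marrow, Ebf1 is the factor that commits lymphoid progenitors to the B lineage. Together with E2A and Foxo1 it activates *Pax5*, which then holds cells in the lineage, and it switches on the genes of the pre-B cell receptor. That receptor consists of the immunoglobulin heavy chain, the surrogate light chain made of VpreB and λ5 (*Igll1*), and the signalling pair Igα and Igβ (*Cd79a* and *Cd79b*), with Blnk as the adaptor below the kinase Syk. Pou2af1 (OBF-1) is a coactivator that works with Oct factors in B cells. Zbtb1 is a zinc finger factor needed for lymphoid development, and Cbfa2t3 and Cbfa2t2 are corepressors of the ETO family.

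The peak windows that the binding results below turn on are shown first. They are the 200 bases around the centre of a peak on mm10, read from GRCm38 on the plus strand. Capitals mark E-boxes (CANNTG, the motif of E2A and other bHLH factors), except in the window at 75.4 kb of *Foxo1*, where they mark the Runx core (TGTGGT or its reverse complement ACCACA). The first window lies upstream of *Foxo1* and was bound by both factors, the second is another Zbtb1 peak of *Foxo1*, the third lies in *Pax5* and was bound by both, and the others are Cbfa2t3 peaks in *Ebf1* and *Blnk*.
Foxo1, 80.7 kb upstream, chr3:52187526-52187725: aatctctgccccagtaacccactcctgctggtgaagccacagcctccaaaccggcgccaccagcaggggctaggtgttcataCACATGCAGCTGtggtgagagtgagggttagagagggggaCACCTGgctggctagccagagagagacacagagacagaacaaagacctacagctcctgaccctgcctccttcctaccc
Foxo1, 75.4 kb inside, chr3:52343650-52343849: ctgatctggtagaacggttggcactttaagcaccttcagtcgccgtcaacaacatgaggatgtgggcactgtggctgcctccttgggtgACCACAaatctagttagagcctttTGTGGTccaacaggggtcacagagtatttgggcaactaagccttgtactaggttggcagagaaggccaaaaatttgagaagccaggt
Pax5, 37.6 kb inside, chr4:44672785-44672984: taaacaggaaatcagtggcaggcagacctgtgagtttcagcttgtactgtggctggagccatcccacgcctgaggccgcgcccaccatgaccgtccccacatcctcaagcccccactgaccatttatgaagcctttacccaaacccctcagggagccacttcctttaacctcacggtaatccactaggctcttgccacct
Ebf1, 142 kb inside, chr11:44758986-44759185: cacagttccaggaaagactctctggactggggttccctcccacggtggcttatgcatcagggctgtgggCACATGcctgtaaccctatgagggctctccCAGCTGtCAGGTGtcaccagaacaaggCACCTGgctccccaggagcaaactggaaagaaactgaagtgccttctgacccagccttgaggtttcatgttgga
Blnk, 31.3 kb inside, chr19:40963149-40963348: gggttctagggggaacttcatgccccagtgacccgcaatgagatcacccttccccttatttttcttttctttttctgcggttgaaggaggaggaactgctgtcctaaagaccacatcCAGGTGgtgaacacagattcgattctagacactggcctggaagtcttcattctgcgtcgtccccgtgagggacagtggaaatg

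The 15 QuantSeq libraries held 1705416 to 2095447 reads. The values are called TPM in the study and are CPM, not divided by length, and since QuantSeq gives about 1 read per transcript, levels of different genes are compared on this scale. An amount of 3 reads, taken as the floor, was worth 1.43 to 1.76 TPM in a library, which covers counting error only. All 8 lymphoid progenitor markers (*Flt3*, *Il7r*, *Kit*, *Ly6d*, *Dntt*, *Rag1*, *Cd34* and *Notch1*) were read, 7 of them above 10 TPM on average. The level of 3 differed in the libraries labelled sgZbtb1 against sgCont by limma, with *Ly6d* at -2.40 ± 0.15, *Kit* at -1.14 ± 0.32 and *Cd34* at 0.53 ± 0.11 on the log2 scale (SE; adjusted p = 3.19e-20, 0.0205 and 0.00107). *Ly6d* was also lower in sgCbfa2t3 (-1.43 ± 0.15, adjusted p = 6.82e-10) and sgCbfa2t2 (-0.69 ± 0.15, adjusted p = 0.0186), and the part of these markers in the results below was not tested. Of 12 markers of OP9 stroma 7 had reads, summing to 1.96 to 14.2 TPM per library, and *Dcn*, *Kitl*, *Col3a1*, *Postn* and *Lum* were at 0. As a check of the labels, *Zbtb1* mRNA was higher in the libraries labelled sgZbtb1 (105.6 ± 9.91 TPM) than in sgCont (61.7 ± 5.51 TPM; SD, n = 3 each), and *Cbfa2t3* mRNA was higher in those labelled sgCbfa2t3 (349.8 ± 12.9 TPM) than in sgCont (190.2 ± 18.7 TPM). *Cbfa2t2* mRNA (21.9 ± 4.85 TPM in sgCbfa2t2, 11.8 ± 0.698 TPM in sgCont) and *Lmo2* mRNA (16.3 ± 7.99 TPM in sgLmo2, 18.4 ± 4.17 TPM in sgCont) did not pass the test. The mRNAs of *Zbtb1* and *Cbfa2t3* thus do not check these labels in the direction of a loss, and a read near the 3′ end need not report an indel made by Cas9. The study detected loss of the Lmo2, Zbtb1 and Cbfa2t3 proteins by immunoblotting, the way the labels say, which was not analysed here. Its text describes no blot of Cbfa2t2, so the label sgCbfa2t2 has no such check. Each condition below is a set of libraries labelled with an sgRNA, and every direction is drawn from those labels.

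*Ebf1* was by far the most abundant of the 9 genes, and it was lower in the libraries labelled sgZbtb1, at 64.6% of its level in sgCont. *Pax5*, a direct target of Ebf1 in normal B-cell development, was read at a few TPM in sgCont and at 11.9% of that level in the same libraries. *Foxo1* stayed at a few TPM in every condition. The receptor and adaptor genes were at or below the floor in most libraries, and *Cd79a* and *Pou2af1* were not read at all. With limma on log2(TPM + 1), fitted over 11554 genes with Benjamini-Hochberg adjustment, 2 of the 5 tested members were called in the libraries labelled sgZbtb1 against sgCont, both lower. Over all genes tested, 4.79% were called in that comparison and 2.94% were called lower. The members were chosen with earlier results of these data known, so their count only describes them. The summed level of 8 T-cell markers (*Cd3d*, *Cd3e*, *Cd3g*, *Bcl11b*, *Tcf7*, *Lck*, *Thy1* and *Cd4*, all with at least 1 read) was lower in the same libraries. It was 412.8 to 442.2 TPM in sgCont, 182.7 to 258.7 TPM in sgZbtb1, 296.0 to 328.9 TPM in sgCbfa2t3, 342.5 to 393.3 TPM in sgCbfa2t2 and 467.0 to 501.8 TPM in sgLmo2. The conditions stood in the same order by this sum as by their mean *Pax5* (given below), whereas in sgLmo2 the sum lay above sgCont and *Ebf1* did not. Most of it was *Thy1* (136.5 to 397.0 TPM), while *Cd3d*, *Cd3e*, *Cd3g* and *Cd4* were at most 1.74 TPM in any library. Its part in the results was not tested.

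**Figure D1:**
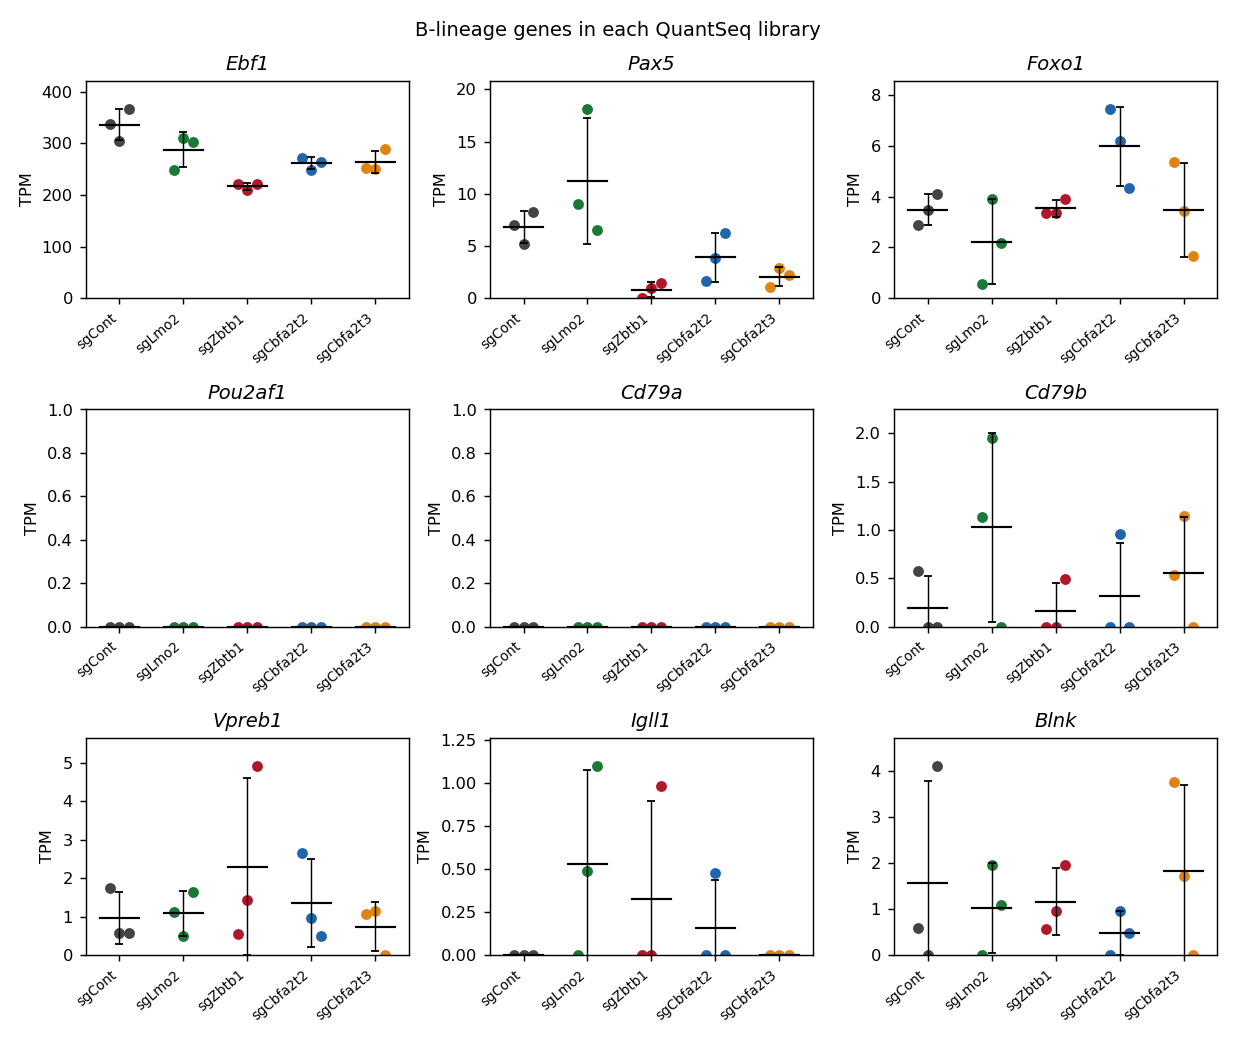
TPM (y axis, linear from 0, with its own range in each panel) of the 9 genes in the 15 libraries, 3 per condition (x axis). Points are libraries, long lines the mean and bars the SD, drawn down to 0 only. *Ebf1* lies between 209.4 and 365.9 TPM with the sgZbtb1 libraries at the bottom, *Pax5* is at most 1.47 TPM in sgZbtb1, and *Pou2af1* and *Cd79a* are at 0 throughout.

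*Ebf1* (ENSMUSG00000057098, chromosome 11, 44617317 to 45008091, plus strand) averaged 273.3 TPM over the 15 libraries, at the 96.9th percentile of the 18602 genes with any read. It was read at 338.0, 305.0 and 365.9 TPM in sgCont. Under sgZbtb1 the values were 221.2, 209.4 and 221.0 TPM. The 3 sgZbtb1 libraries lay together, below the other 12 libraries. Of all genes 12.8% had these 3 libraries below all of sgCont. The log2 difference came to -0.62 ± 0.10 (SE; adjusted p = 6.96e-06 by limma), with means of 217.2 ± 6.74 TPM in sgZbtb1 and 336.3 ± 30.5 TPM in sgCont (SD, n = 3 each). With each of the 15 libraries left out in turn the adjusted p stayed between 3.34e-06 and 0.000835. In bulk RNA, fewer cells that express a gene and less mRNA per cell cannot be told apart, here and for every gene below. The part of the allele that is missing was not given in the sources used here, so reads near the 3′ end do not check the deletion.

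The other conditions held intermediate *Ebf1* levels. The libraries labelled sgCbfa2t2 were at 270.9, 249.1 and 264.2 TPM, and those labelled sgCbfa2t3 at 252.5, 251.2 and 289.2 TPM. All 6 lay below the lowest sgCont library, as they did for 6.85% of all genes in sgCbfa2t2 and 9.06% in sgCbfa2t3, each condition taken alone. The libraries labelled sgLmo2 were at 248.8, 310.0 and 303.5 TPM, and 1 of them overlapped the range of sgCont. None of these 3 conditions passed the adjusted threshold, with log2 differences of -0.36 ± 0.10 in sgCbfa2t2 (adjusted p = 0.144 by limma), -0.35 ± 0.10 in sgCbfa2t3 (adjusted p = 0.0979) and -0.23 ± 0.10 in sgLmo2 (adjusted p = 0.849; SE). DESeq2 on the recovered reads called the differences in sgCbfa2t2 (adjusted p = 0.0270) and sgCbfa2t3 (adjusted p = 0.0495). Of all genes 0.147% were called in sgCbfa2t2, 0.537% in sgCbfa2t3 and 0.0173% in sgLmo2, and none of the 5 tested members was among them. At an unadjusted p under 0.05 there was 1 member in sgLmo2 (*Ebf1*), 1 in sgCbfa2t2 (*Ebf1*) and 2 in sgCbfa2t3 (*Ebf1* and *Pax5*), and edgeR called 0 in each. Over all genes 5.65%, 9.56% and 10.6% were at such a p in these conditions, so these counts of members are not read as a result.

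Set against sgCont together, the 12 gene-targeting libraries averaged 257.6 ± 32.0 TPM of *Ebf1* (SD, n = 12), and 11 of them were below every sgCont library. The log2 difference came to -0.39 ± 0.08 (SE; adjusted p = 0.00368 by limma), and 0.615% of all genes were called in this comparison, 0.459% as lower. An exact two-sided permutation test of 12 libraries against 3 gave p = 0.00879. *Ebf1* was the only tested member called, and the call was lost without sgCont replicate 3, the library with the highest *Ebf1* (adjusted p = 0.141). In descending order the mean levels were sgCont (336.3 TPM), sgLmo2 (287.4), sgCbfa2t3 (264.3), sgCbfa2t2 (261.4) and sgZbtb1 (217.2). No neighbours in this order differed with an adjusted p below the threshold (0.849, 0.757, 0.994 and 0.171 from the top, limma). Between gene-targeting conditions *Ebf1* was higher in sgLmo2 than in sgZbtb1 by 0.40 ± 0.10 on the log2 scale (SE; adjusted p = 0.00701 by limma), where 5.06% of all genes were called. This call was lost without sgLmo2 replicate 2 (adjusted p = 0.0798) or replicate 3 (adjusted p = 0.0646).

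**Figure D2:**
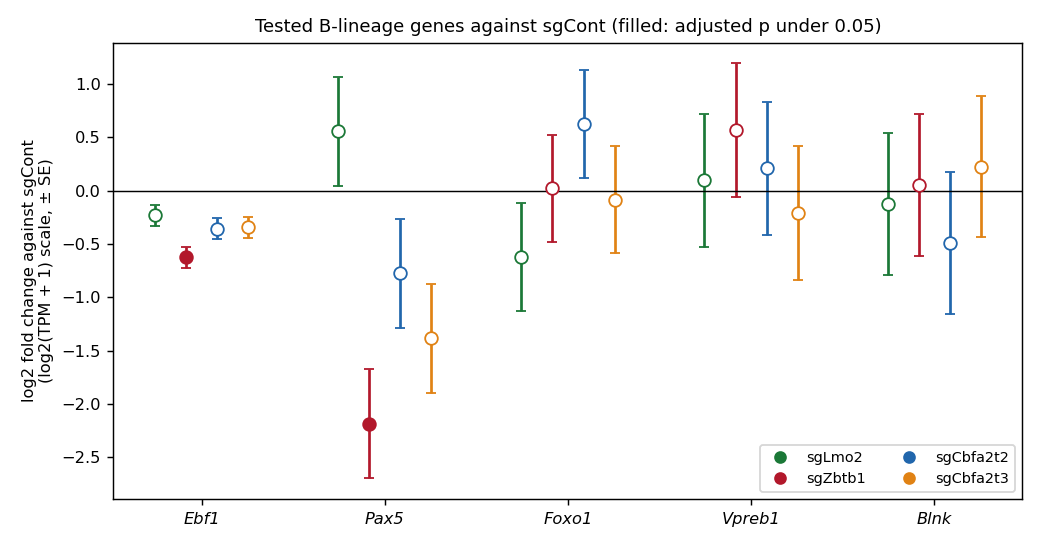
Log2 fold change against sgCont (y axis, log2(TPM + 1) scale) with standard error for the 5 tested genes (x axis) and the 4 gene-targeting conditions (colours); filled points had an adjusted p under 0.05. *Ebf1* is below 0 in each condition, *Pax5* reaches -2.19 in sgZbtb1, and the bars of *Foxo1*, *Vpreb1* and *Blnk* are wide.

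*Pax5* (ENSMUSG00000014030, chromosome 4, 44524757 to 44710487, minus strand), the gene for the factor that maintains B-cell identity, held 140 reads in all. It was read at 6.97, 5.21 and 8.21 TPM in sgCont, which is 12, 9 and 14 reads. In the libraries labelled sgZbtb1 it was at 0, 0.956 and 1.47 TPM, or 0, 2 and 3 reads. No sgZbtb1 library was above the floor of 3 reads, and the 3 lay below all of sgCont. On the log2 scale the gene differed by -2.19 ± 0.51 (SE; adjusted p = 0.00420 by limma). From the reads themselves, 5 against 35, the level was 8.04-fold lower, with an exact 95% interval of 3.14 to 26.3 that covers counting error only. The call held with each library left out, with adjusted p up to 0.0485. *Pax5* passed the filter on low values through the conditions where it was higher, since its mean in sgZbtb1 was 0.810 TPM.

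In the libraries labelled sgCbfa2t3, *Pax5* was at 1.07, 2.85 and 2.22 TPM, again below all of sgCont. The log2 difference of -1.38 ± 0.51 did not pass the adjusted threshold (SE; adjusted p = 0.285 by limma). The libraries labelled sgCbfa2t2 were at 1.60, 3.82 and 6.28 TPM and overlapped sgCont. Those labelled sgLmo2 were at 9.05, 18.1 and 6.57 TPM, and 2 of them lay above sgCont. Neither difference was called (limma adjusted p = 0.685 in sgCbfa2t2 and 0.947 in sgLmo2). The condition with the most *Pax5* was thus sgLmo2 (mean 11.2 TPM), followed by sgCont (6.80), sgCbfa2t2 (3.90), sgCbfa2t3 (2.05) and sgZbtb1 (0.810), and neighbours in this order did not differ past the threshold (limma adjusted p of 0.947, 0.685, 0.932 and 0.669 from the top).

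The libraries labelled sgLmo2 and sgZbtb1, both directed at components of one complex, stood at opposite ends for *Pax5*. The difference was 2.74 ± 0.51 on the log2 scale (SE; adjusted p = 0.000145 by limma), and the adjusted p stayed at or below 0.00875 with any library left out. *Pax5* was also higher in sgLmo2 than in sgCbfa2t3 by 1.94 ± 0.51 (SE; adjusted p = 0.0468 by limma), where 0.736% of all genes were called. That call was lost in 3 of 6 other fits and in 10 of the 15 that left out a library, with an adjusted p of 0.356 without sgLmo2 replicate 2, which held 37 of the 65 *Pax5* reads of its condition. In the other pairs of gene-targeting conditions limma called no member, where 0.234% of all genes were called between sgLmo2 and sgCbfa2t2, 2.27% between sgZbtb1 and sgCbfa2t2, 1.13% between sgZbtb1 and sgCbfa2t3 and 0.0779% between sgCbfa2t2 and sgCbfa2t3. Across the 5 conditions, the moderated F test of limma called *Ebf1* (adjusted p = 0.000136) and *Pax5* (adjusted p = 0.000620) and no other tested member, where 4.54% of all genes were called.

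*Foxo1* in sgCbfa2t2 was the other case without overlap between groups. The libraries labelled sgCbfa2t2 held 7.45, 6.20 and 4.35 TPM of *Foxo1*, and sgCont held 2.90, 3.47 and 4.10 TPM. All 3 sgCbfa2t2 libraries lay above sgCont, by little in the lowest. The log2 difference of 0.62 ± 0.50 was not called (SE; adjusted p = 0.750 by limma). Counted over all genes, 6.88% had 3 sgCbfa2t2 libraries above all of sgCont. For each of these cases, *Ebf1* in sgZbtb1, sgCbfa2t2 and sgCbfa2t3, *Pax5* in sgZbtb1 and sgCbfa2t3, and *Foxo1* in sgCbfa2t2, an exact two-sided permutation test gave p = 0.1, the smallest that 3 libraries against 3 allow.

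*Foxo1* (ENSMUSG00000044167, chromosome 3, 52268336 to 52353221, plus strand) encodes a forkhead factor that acts with Ebf1 and is needed for *Il7r* and the *Rag* genes. It averaged 3.75 TPM. The sgLmo2 libraries held 0.565, 3.91 and 2.19 TPM, those of sgZbtb1 3.35, 3.35 and 3.93 TPM and those of sgCbfa2t3 5.36, 3.43 and 1.66 TPM. These ranges overlapped that of sgCont. In sgZbtb1, where *Ebf1* and *Pax5* were lower, the read ratio for *Foxo1* to sgCont was 1.02 with an exact 95% counting interval of 0.516 to 2.02, from 21 and 18 reads. The interval leaves out the spread between libraries, so changes within it, and some beyond it, may go undetected at this depth. The related factors *Foxo3* (59.6 TPM on average) and *Foxo4* (15.8 TPM) were more abundant than *Foxo1*, *Foxo6* was at 0, and neither *Foxo3* nor *Foxo4* was called in any of the 4 comparisons with sgCont by limma, edgeR or DESeq2, with *Foxo3* in sgCbfa2t3 at an unadjusted p of 0.0411. The Ebf paralogs *Ebf2*, *Ebf3* and *Ebf4* were at 0 in all 15 libraries.

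The receptor genes were scarcely read. *Vpreb1* (ENSMUSG00000059305, chromosome 16, 16868403 to 16870843, minus strand), whose product pairs with λ5, had 37 reads over 14 libraries. It was at 1.74, 0.578 and 0.586 TPM in sgCont and under sgZbtb1 at 0.558, 1.43 and 4.91 TPM, where 1 library of 10 reads stood above the rest. The other conditions lay between 0 and 2.66 TPM, and no comparison with sgCont was called (limma adjusted p from 0.694 to 0.997). Of 907 stretches of 75 bases near its 3′ ends 127 also occur in *Vpreb2*, and it shares exon bases with *Top3b* on the other strand (71.5 to 108.2 TPM). The counting of strands was not stated, so the few *Vpreb1* reads are uncertain.

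*Igll1*, which encodes λ5, had 6 reads in 4 libraries, 3 of them in sgLmo2, 2 in sgZbtb1 and 1 in sgCbfa2t2. *Cd79b*, encoding Igβ, had 13 reads in 7 libraries, with 6 in sgLmo2 and 1 in sgCont, and only sgLmo2 replicate 2 (4 reads) was above the floor. No direction can be read from such counts. *Cd79a*, the partner of *Cd79b* in the receptor, and *Pou2af1* had 0 of 28179128 reads, which allows a level of up to 0.106 TPM. All 3 of *Cd79a*, *Cd79b* and *Igll1* normally rise in pro-B cells under Ebf1.

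*Blnk* (ENSMUSG00000061132, chromosome 19, 40928927 to 40994535, minus strand), the adaptor that links Syk to calcium signalling, had 34 reads. It was at 0.580, 0 and 4.10 TPM in sgCont, and the spread within this condition covered the values of every other library. The highest values elsewhere were 3.75 TPM in sgCbfa2t3, 1.96 TPM in sgZbtb1, 1.96 TPM in sgLmo2 and 0.954 TPM in sgCbfa2t2. No comparison with sgCont was called (limma adjusted p from 0.883 to 0.996).

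Among 57 other genes of the B-lineage program, 43 were tested and 9 were at 0 in all libraries. In the libraries labelled sgZbtb1, 7 of the 43 (16.3%) were called against sgCont, 5 lower and 2 higher, beside 4.79% of all genes. The list was chosen with earlier results of these data known, so its shares, here and in the other conditions below, only describe it. The median log2 fold change of the list was -0.14, and that of all genes -0.028. The 5 that fell were *Cd24a*, *Runx1*, *Bcl11a*, *Ighm* and *Syk*. The summed level of the T-cell markers given above was lower in these libraries too. Its part in the result was not tested.

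**Figure D3:**
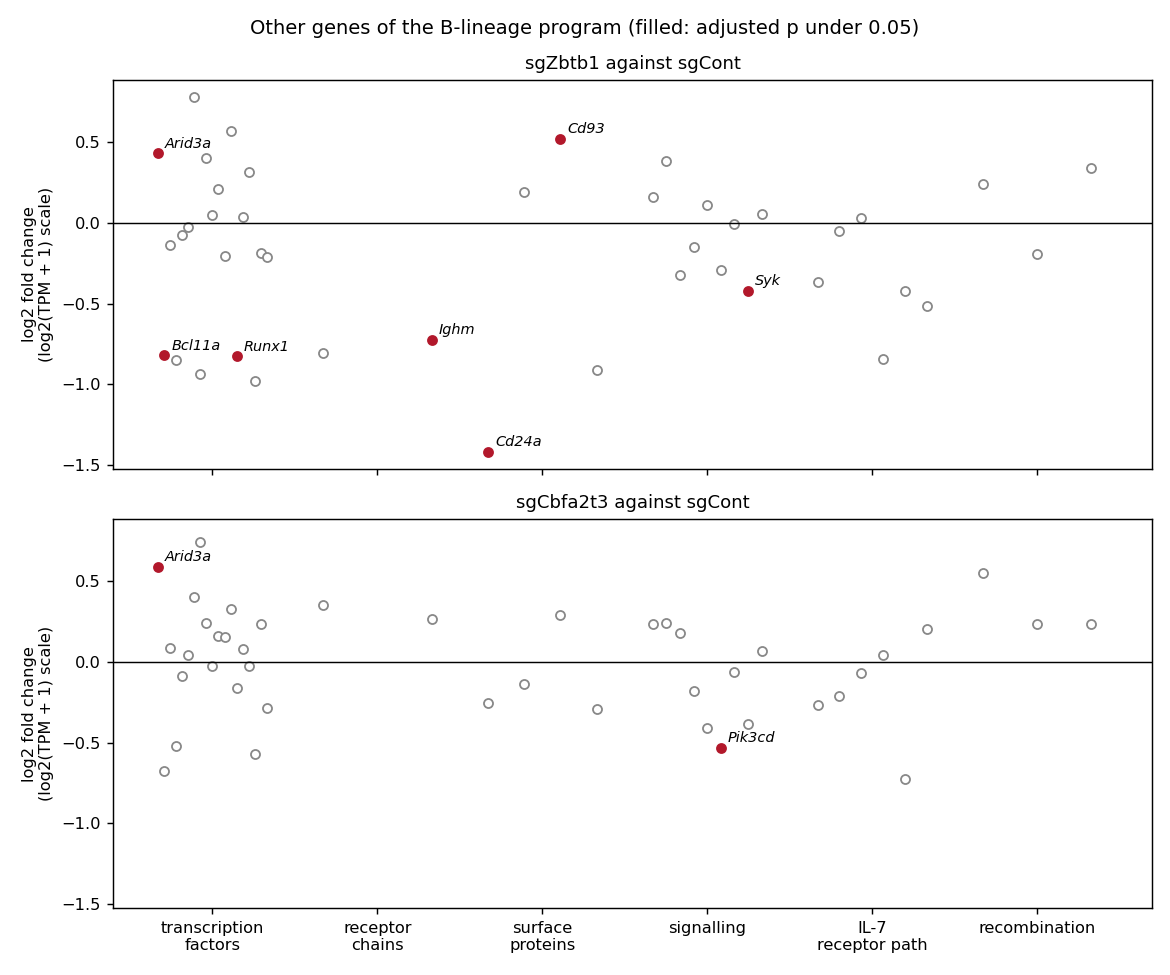
Log2 fold change against sgCont (y axis, log2(TPM + 1) scale) of the 43 tested program genes by class (x axis) in the libraries labelled sgZbtb1 (top) and sgCbfa2t3 (bottom), 1 point per gene. Filled, named points had an adjusted p under 0.05, 7 in sgZbtb1 with *Cd24a* lowest at -1.42 and 2 in sgCbfa2t3.

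*Cd24a*, which encodes the heat stable antigen found on pro-B cells, fell most. It was at 120.2, 132.5 and 93.8 TPM in sgCont and at 52.0, 44.0 and 32.9 TPM in sgZbtb1, without overlap. The log2 difference came to -1.42 ± 0.14 (SE; adjusted p = 4.23e-11 by limma). *Ighm*, the μ heavy chain gene, is transcribed in sterile form before rearrangement and was the most abundant gene of the receptor class (339.0 TPM on average). It was at 245.7, 398.2 and 409.9 TPM in sgCont and at 189.4, 205.6 and 226.8 TPM in sgZbtb1, a log2 difference of -0.72 ± 0.13 (SE; adjusted p = 8.04e-05 by limma). All 3 sgZbtb1 libraries lay below sgCont, the highest close to the lowest sgCont library. The other chains were little read: *Ighd* stayed below 4 TPM, and *Vpreb2*, *Vpreb3*, *Igkc*, *Iglc1* and *Iglc2* were at 0.

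Among the 19 tested transcription factors, *Runx1*, which acts upstream of *Ebf1* in B-cell development, was at 333.9, 323.5 and 302.6 TPM in sgCont. Under sgZbtb1 the values were 178.2, 186.5 and 174.8 TPM. The groups were far apart, with a log2 difference of -0.83 ± 0.10 (SE; adjusted p = 3.28e-09 by limma). *Bcl11a*, required for early B cells, had a log2 difference of -0.82 ± 0.24 (SE; adjusted p = 0.0264 by limma), and *Arid3a*, a factor binding immunoglobulin regulatory regions, one of 0.43 ± 0.12 (SE; adjusted p = 0.0155 by limma). Both calls were lost in 3 of the 15 fits that left out a library, with an adjusted p of 0.210 for *Bcl11a* and 0.209 for *Arid3a* at most. With all genes above 0 in the fit, both were lost too (limma adjusted p = 0.0667 for *Bcl11a* and 0.0532 for *Arid3a*). In sgLmo2 the log2 difference of *Bcl11a* from sgCont was -1.05 ± 0.24 and was not called (SE; adjusted p = 0.110 by limma). The kinase gene *Syk*, at -0.42 ± 0.13 (SE), was just inside the threshold (limma adjusted p = 0.0498) and lost its call in 8 of the 15 and in 5 of 7 other fits, edgeR, DESeq2 and median-of-ratios scaling among them (adjusted p up to 0.127). *Cd93*, a surface protein of early B-lineage cells, rose from 229.5 ± 16.9 TPM to 329.5 ± 22.1 TPM (SD, n = 3 each), a log2 difference of 0.52 ± 0.10 (SE; adjusted p = 0.000159 by limma).

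In sgCbfa2t3 2 of the 43 program genes were called, beside 0.537% of all genes. *Arid3a* rose by 0.59 (standard error 0.12) and *Pik3cd*, a kinase subunit of B-cell signalling, fell by 0.53 (standard error 0.10), each with a limma adjusted p of 0.00228. *Pik3cd* lost the call without sgCont replicate 2 (adjusted p = 0.0680). In sgLmo2 1 of the 43 was called, beside 0.0173% of all genes. *Irf8*, an interferon regulatory factor with roles in early B cells, was at 110.9, 120.4 and 115.5 TPM in sgCont and at 50.9, 58.2 and 61.9 TPM in sgLmo2. That is a log2 difference of -1.01 ± 0.13 (SE; adjusted p = 1.20e-06 by limma), and the groups lie far apart. The summed level of 8 myeloid markers (6 with reads, *Elane* and *Cd14* at 0) was also lower there, at 7.67 to 18.7 TPM in sgLmo2 and 23.2 to 26.0 TPM in sgCont, and its part in the result was not tested. In sgCbfa2t2 limma called 0 of the 43, beside 0.147% of all genes, with 4 (9.30%) at an unadjusted p under 0.05, near the 9.56% of all genes, and edgeR and DESeq2 called 0 as well. With the 4 gene-targeting conditions together 2 were called, beside 0.615% of all genes, *Runx1* at -0.31 ± 0.08 (SE; adjusted p = 0.0379 by limma) and *Bcl11a* at -0.74 ± 0.19 (SE; adjusted p = 0.0381 by limma), and these calls were lost in 5 and 6 of the 15 fits that left out a library. *Il7r* (159.1 TPM on average), *Rag1* (2.07 TPM) and *Rag2* (2.91 TPM) were called in no comparison with sgCont.

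Only *Ebf1* had a mean above 10 TPM, so that its pattern could be set beside those of other genes. Among 7959 other protein-coding genes above 10 TPM, the log2 levels most like it over the 15 libraries were those of *Zbtb20* (Pearson's r = 0.912) and *Syne1* (r = 0.894). These are descriptions over 15 libraries that share 5 conditions.

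Zbtb1 and Cbfa2t3 peaks were counted at the 9 genes next, which asks whether the factors whose sgRNAs were used were found at these genes in LPs. The lists hold the peaks reproducible in both replicates with a peak score of at least 15, so they give no replicate error and no depth. As nearest gene, *Foxo1* had 4 Zbtb1 peaks and 1 Cbfa2t3 peak, *Ebf1* and *Blnk* 1 Cbfa2t3 peak each, and the other 6 genes none. A Zbtb1 peak was thus listed for 1 of the 9 genes and a peak of either factor for 3, and all of these are among the 5 tested members. On that set the counts are 1 of 5 for Zbtb1, 3 of 5 for Cbfa2t3 and 3 of 5 for either. Over all 11554 genes tested, 26.8% had a Zbtb1 peak, 20.5% a Cbfa2t3 peak and 36.0% either.

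At *Foxo1*, both factors were found at the same site 80.7 kb upstream of the gene, the first window printed above. The Cbfa2t3 peak there had a score of 92.0, at the 90.5th percentile of its list, and the Zbtb1 peak one of 21.4, at the 31.3rd percentile. The peaks overlapped by 348 bp and their centres were 27 bp apart. The window is intergenic in the annotation the authors deposited, which places the Zbtb1 peak on an LTR repeat, and overlaps an exon of *Gm38132*, a noncoding RNA gene, in GENCODE. It holds 3 E-boxes, of which CAGCTG overlaps the Runx core TGTGGT. E-boxes occurred in 89.3% of all Cbfa2t3 windows and 53.6% of all Zbtb1 windows, and a Runx core in 43.7% and 41.3%.

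The other Zbtb1 peaks of *Foxo1* lay 79.0 kb upstream (score 31.1), 1.65 kb inside the gene at a CpG island (score 23.8) and 75.4 kb inside it (score 22.3), and the peaks inside the gene lie in intron 1. The window at 75.4 kb holds 2 Runx cores. A gene with 4 or more Zbtb1 peaks was uncommon, with 72 (1.69%) of the 4270 genes that had any. In the libraries labelled sgZbtb1 the *Foxo1* mRNA showed no detectable difference from sgCont, as given above, and in those labelled sgCbfa2t3 none either (limma adjusted p of 0.989 and 0.976).

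**Figure D4:**
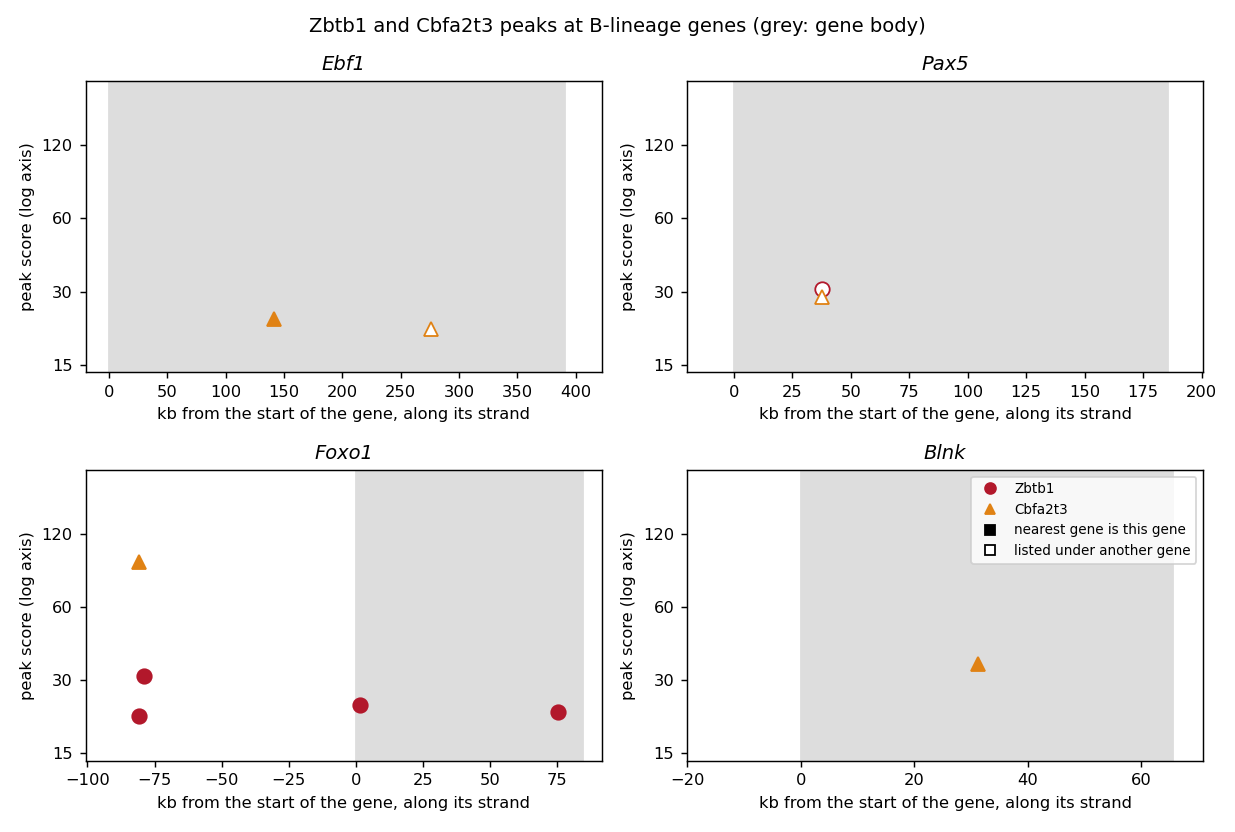
Peak score (y axis, log scale) against the distance from the start of the gene in kb along its strand (x axis) for Zbtb1 (circles) and Cbfa2t3 (triangles) at *Ebf1*, *Pax5*, *Foxo1* and *Blnk*, with the gene body in grey. Filled symbols are peaks with the gene as nearest gene, open ones lie in the gene body but are listed under another gene, such as the overlapping pair in *Pax5* with scores of 30.6 and 28.4; 1 Cbfa2t3 peak in *Ebf1* is not drawn.

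Long genes can hold peaks that are listed under a small gene nearby, and a count by gene body, added after seeing the lists, found such peaks in *Ebf1* and *Pax5*. In intron 5 of *Pax5*, 37.6 kb from the start, a Zbtb1 peak (chr4:44672699-44673069, score 30.6) and a Cbfa2t3 peak (score 28.4) overlapped by 356 bp with centres 19 bp apart. Both are listed under *5730488B01Rik*, a gene inside *Pax5* on the other strand that was at 0 in all libraries. Intron 5 of *Pax5* is known to carry a B-lineage enhancer, and whether these peaks lie on it was not tested. The window, the third printed above, holds no E-box and no Runx core.

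*Ebf1* held 3 Cbfa2t3 peaks in its 391 kb and no Zbtb1 peak. The peak assigned to *Ebf1* itself, 142 kb inside in intron 6, had a score of 23.2, and its window holds 4 E-boxes and no Runx core. Another, 276 kb inside in intron 8, had a score of 21.0 and is listed under *Gm12159*, which was at 0 in all libraries. The closest Zbtb1 peak lay 98.1 kb upstream of *Ebf1* and is listed under *Rnf145*.

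At *Blnk*, the Cbfa2t3 peak listed under it lay in intron 4 of 16, 31.3 kb inside the gene, with a score of 34.9. Its window holds 1 E-box and 1 Runx core. The Cbfa2t3 peak closest to the start of *Blnk* lay 27.9 kb upstream, with a score of 167.2 and *Dntt* as nearest gene. The remaining genes had no peak in their bodies. The closest Zbtb1 peak to both surrogate light chain genes, which are neighbours on chromosome 16, was 25.3 kb upstream of *Vpreb1* and 32.2 kb upstream of *Igll1*, with a score of 65.2 and *Ppm1f* as nearest gene. The closest peak to *Cd79a* was a Cbfa2t3 peak 10.1 kb inside the direction of transcription, past the end of this 4.82 kb gene, and for *Pou2af1* no peak lay within 100 kb. The closest peak to *Cd79b* was a Cbfa2t3 peak 45.5 kb from its start, past its end, with *Smarcd2* as nearest gene.

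Sequences of 250 bases before to 50 after the start of genes (RefSeq, GRCm38.p6) were found for 8 of the 9 genes, with 2 entries for *Ebf1* and none for *Cd79b*. The Ebf core (TCCC and GGGA with any 2 bases between, a palindrome) was found in that of *Foxo1* only, beside 0.904% of 32851 promoters. A Runx core was found in 2 of these 9 entries (*Ebf1* and *Igll1*), beside 16.8% of promoters. An E-box was found in 8 of the 9, beside 72.3%. In the windows of the peaks with a member as nearest gene, the Ebf core was in 0 of 4 (Zbtb1) and 0 of 3 (Cbfa2t3), beside 0.238% and 0.346% of all windows. GATAA and TGGTGGT were likewise in 0 of the 7, and GGAA in 1 of 4 and 3 of 3, beside 81.1% and 92.4% of all windows. A match or its absence describes these letters only.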

How the data were processed

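QuantSeq 3′ libraries were made from LPs with 5 sgRNA conditions in 3 replicates and ChIP-seq libraries for Zbtb1 and Cbfa2t3 in 2 replicates. For QuantSeq, the authors trimmed reads with fastp, mapped them with STAR to mm10 and deposited CPM values under the name TPM. Every value of a library is a multiple of what 1 read is worth there, which gave back whole reads for 100% of values (within 0.05 reads). The test planned for TPM was kept. Of 55422 rows, 1 with no gene ID (1 read per library) was dropped. The counting program and its use of strands are not given in the sources used here. The authors also deposited 18 columns of group means and comparisons, which were not used. The ChIP-seq reads were aligned by the authors with Bowtie 1.1.1, and HOMER called peaks over input. The authors deposited, per factor, 1 list of peaks found in both replicates (score of at least 15), with a score, a fraction called focus ratio (not used in a result) and the nearest gene.

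The 11554 genes whose mean exceeded 1 TPM were fitted with limma 3.58.1 (trend) in R 4.3.3 on log2(TPM + 1), which understates changes of low genes, with all libraries in 1 fit and Benjamini-Hochberg adjustment over all of them at 0.05. Tests are two-sided. Replicates are labelled as separate samples and treated as coming from 1 line, and p-values measure the spread between them. Alternatives were a pseudocount of 0.1, all genes above 0, the libraries of the groups compared alone, a replicate block, size factors by median of ratios, count tests of the whole reads (edgeR 4.0.16, DESeq2 1.42.0), the rule of the study on unlogged values, and leaving out each library. Intervals of read ratios are exact binomial ones. Motifs were counted in 200 base windows at peak centres, on both strands. The scripts were tested on simulated data. Python 3.11.15, pandas 2.3.3, scipy 1.17.1 and matplotlib 3.10.9 were used.

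The members and gene lists were chosen with earlier results of these data known. Named besides the members are up to 5 genes per comparison by size among program genes and paralogs with an adjusted p under 0.05, *Ighm*, *Vpreb2*, *Vpreb3*, *Rag1*, *Il7r* and the Ebf paralogs whatever their values, the sgRNA targets, and the 2 genes most like each member above 10 TPM; in sgZbtb1, where 7 were called, *Arid3a* and *Syk* were named beyond that number, and other program genes and paralogs (such as *Rag2* and *Foxo3*) were also named after their values were seen. A Cbfa2t3 peak in *Ebf1* and a program gene of the rule are not reported here.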

Additional observations from a re-analysis of the deposited data

How the results depend on the processing

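The calls of *Ebf1* and *Pax5* in the libraries labelled sgZbtb1 kept their direction and their side of the threshold under all 7 other fits and with each of the 15 libraries left out. With the rule of the study on unlogged values (p under 0.05, absolute log2 ratio above 1, mean above 10 TPM) 0 of the members were called there in place of 2, since *Ebf1* misses the fold and *Pax5* the level. DESeq2 called 1 member (*Ebf1*) in place of 0 in sgCbfa2t2 and in sgCbfa2t3. The cause was not tested. With libraries left out, members called in the 4 gene-targeting conditions together ranged from 0 to 1, differences of members between gene-targeting conditions from 1 to 3, and program genes called from 5 to 8 in sgZbtb1, from 1 to 2 in sgCbfa2t3 and from 0 to 3 in the 4 together.

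The replicate block raised the program genes called in sgLmo2 from 1 to 3 and changed no call of a member against sgCont. The replicate numbers were not taken to pair the libraries, since they are not stated to do so. Deviations of same-numbered libraries correlated at 0.0408 on average over 30 pairs (-0.0131 to 0.113, 2 above 0.1). Those of libraries with unlike numbers correlated at -0.0204 on average over 60 pairs (0 above 0.1). By mean correlation 13 of 15 libraries were closest to those of their own number, a hint from the data and not the design. With all genes above 0 in the fit, 4 in place of 7 program genes were called in sgZbtb1 and 0 in place of 2 in the 4 conditions together.

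Over all genes, the counts called moved by over 1.5 times under some settings. With all genes above 0, 330 in place of 554 were called in sgZbtb1, 24 in place of 62 in sgCbfa2t3, 0 in place of 17 in sgCbfa2t2 (1402 at an unadjusted p under 0.05; 17 by edgeR among genes above 1 TPM) and 19 in place of 71 in the 4 together. The block gave 14 in place of 2 in sgLmo2, 36 in sgCbfa2t2, 93 in sgCbfa2t3 and 125 in the 4 together. The libraries of the groups compared alone gave 5 in sgLmo2 and 43 in sgCbfa2t2, and the rule of the study 23, 171, 44 and 48 in sgLmo2, sgZbtb1, sgCbfa2t2 and sgCbfa2t3. With DESeq2, 1 of 3 calls in sgLmo2, 5 of 16 in sgCbfa2t2 and 21 of 53 in sgCbfa2t3 were higher, against 1 of 2, 3 of 17 and 15 of 62 with limma. With a library left out, 1 to 5 genes were called in sgLmo2, 306 to 600 in sgZbtb1, 2 to 26 in sgCbfa2t2, 26 to 67 in sgCbfa2t3 and 16 to 88 in the 4 together. Between gene-targeting conditions the ranges were 333 to 615 (585 with all libraries) for sgLmo2 and sgZbtb1, 9 to 31 (27) for sgLmo2 and sgCbfa2t2, 48 to 87 (85) for sgLmo2 and sgCbfa2t3, 131 to 285 (262) for sgZbtb1 and sgCbfa2t2, 86 to 140 (130) for sgZbtb1 and sgCbfa2t3 and 1 to 10 (9) for sgCbfa2t2 and sgCbfa2t3. With all genes above 0, the counts of these pairs were 356, 5, 41, 140, 80 and 1.

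Directions of uncalled members depended on the fit. With edgeR and DESeq2, *Foxo1* turned to 0.015 and 0.0072 in sgCbfa2t3 and to 0.052 and 0.043 in the 4 together, *Blnk* turned to -0.36 and -0.39 in sgZbtb1, and with a pseudocount of 0.1 *Blnk* turned to 0.10 in the 4 together. With libraries left out, signs turned for *Foxo1* in sgZbtb1 (from -0.076 to 0.12), in sgCbfa2t3 (from -0.38 to 0.25) and in the 4 together (from -0.11 to 0.097), for *Vpreb1* in sgLmo2 (from -0.094 to 0.36), in sgCbfa2t2 (from -0.16 to 0.49) and in sgCbfa2t3 (from -0.40 to 0.15), and for *Blnk* in sgLmo2 (from -0.63 to 0.55), in sgZbtb1 (from -0.45 to 0.73), in sgCbfa2t2 (from -0.99 to 0.18), in sgCbfa2t3 (from -0.28 to 0.90) and in the 4 together (from -0.59 to 0.59).

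A peak score of at least 30 left 1 of 4 Zbtb1 peaks, 2 of 3 Cbfa2t3 peaks and 0 of 1 shared peaks. Over the whole lists 46.3% (Zbtb1) and 58.5% (Cbfa2t3) of peaks had such a score. Peaks within 10 kb of the promoter were 1 (Zbtb1) and 0 (Cbfa2t3), beside 63.3% and 41.9% of the whole lists. By gene body, Cbfa2t3 had 5 peaks in place of 3 and Zbtb1 had 3 in place of 4. Depth limits every gene except *Ebf1*: the reads of *Pax5*, *Foxo1*, *Vpreb1* and *Blnk* allow only large changes to be seen, and the peak lists give no depth.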
